A study of Mus musculus with 6 samples.

Results

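YAP and TAZ signalling genes and Piezo channels were followed through 6 single-cell RNA-seq libraries of mouse lung fibroblasts (FBs) and alveolar organoids. The group was fixed by gene symbol and held 9 members, namely Yap1, Wwtr1, Tead1, Cyr61, Ctgf, Ankrd1, Amotl2, Piezo1 and Piezo2. All 9 were rows of every count table, out of 30830 and 30828 genes in the single-dose libraries and 32285 genes in each of the other 4. The libraries came from Pdgfra-GFP reporter mice, in which GFP marks cells expressing the PDGF receptor alpha, and FBs were isolated by FACS for GFP after enzymatic digestion of the lung. Each library pooled 3 mice, and there was 1 library per condition. No difference between conditions therefore had a replicate check, and no test between conditions was possible.

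In the single-dose experiment, FBs were sorted at day 14 after 50 µl of PBS, or after 1 dose of bleomycin, an agent that causes fibrosing lung injury. The labels disagree on that dose, with 2 U/kg in the protocol and 4 U/kg under treatment. In the repetitive experiment, PBS or bleomycin was given once weekly for 3 doses (1, 1 and 0.5 U/kg), and FBs were sorted 2 weeks after the last dose. In the organoid experiment, tomato+ alveolar type 2 epithelial cells (AEC2s) from SpcCreER donors, labelled by 2 doses of tamoxifen, were mixed with GFP+ FBs from PBS-treated mice (normal FBs) or from mice given bleomycin at 2 U/kg (fibrogenic FBs). The proportion is uncertain, since the labels read as 10 AEC2s to 1 FB. The study's methods put FBs in excess. The mixtures were grown in matrigel for 2 weeks, so that organoid FBs had left the injured lung well before they were measured. SpcCreER labels cells that express surfactant protein C, and a GFP gate selects FBs by the Pdgfra reporter, so FBs without GFP were outside the design.

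YAP (Yap1) and its paralog TAZ (Wwtr1) are transcriptional co-activators that enter the nucleus when cells spread on stiff matrix or lose the restraint of Hippo kinases. They bind no DNA themselves and act through TEAD factors such as TEAD1, which switch on genes including Cyr61 and Ctgf (matricellular proteins now named Ccn1 and Ccn2), Ankrd1 (an ankyrin repeat cofactor) and Amotl2 (an angiomotin that holds YAP in the cytoplasm). Piezo1 and Piezo2 form stretch-gated cation channels, of which PIEZO2 is best known for touch, proprioception and lung inflation sensing in sensory neurons.

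In GENCODE M21 on GRCm38, the members are protein-coding genes. Yap1 lies at chr9:7931999-8004596, Wwtr1 at chr3:57455649-57575910, Tead1 at chr7:112679318-112906807, Cyr61 at chr3:145646976-145649981, Ctgf at chr10:24595442-24598683, Ankrd1 at chr19:36111961-36120099, Amotl2 at chr9:102716672-102733418 and Piezo1 at chr8:122481698-122551329. Promoters of 6 of the 9 members were found in a RefSeq table of promoters on GRCm38.p6, each 300 bases long, and 5 of the 6 held the TEAD core motif, searched as GGAATG on the gene's strand and as its reverse complement CATTCC. The same search found the motif in 14.7% of all 32817 promoters, and a match is a description of letters, not a bound site. The targets among the members are known as TEAD targets, so a motif in their promoters was no independent result. Yap1 and Wwtr1, also shown, are the co-activators and not among these targets. The stretches are given with the motif in capitals and the gene's strand read 5′ to 3′.
Cyr61, chr3:145650071-145650100, minus strand, motif 103 bases before the start: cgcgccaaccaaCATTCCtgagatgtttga
Amotl2, chr9:102717727-102717756, plus strand, motif 65 bases before the start: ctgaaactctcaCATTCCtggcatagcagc
Ankrd1, chr19:36120037-36120066, minus strand, motif 210 bases before the start: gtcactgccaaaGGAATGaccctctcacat
Ankrd1, chr19:36119950-36119979, minus strand, motif 123 bases before the start: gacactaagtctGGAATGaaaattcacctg
Wwtr1, chr3:57576029-57576058, minus strand, motif 136 bases before the start: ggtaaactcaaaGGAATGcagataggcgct
Yap1, chr9:8004720-8004749, minus strand, motif 141 bases before the start: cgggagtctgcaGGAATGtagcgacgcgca
The Amotl2 stretch and both Ankrd1 stretches also overlapped annotated exons of their own genes. No match lay in the 300 bases of the Piezo1 promoter.

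Libraries held 1015 to 10737 barcodes and 7201081 to 238618743 UMIs, with medians of 2478 to 36841 UMIs per barcode. The shallowest was the repetitive bleomycin library, in which 43.7% of barcodes had under 2000 UMIs. Barcodes were assigned to cell types by fixed limits on marker UMIs, called gates here, and FB-gated barcodes numbered 915, 839, 5389 and 7626 in the PBS single-dose, bleomycin single-dose, PBS repetitive and bleomycin repetitive libraries. The sort marker was present in them at 522, 295, 596 and 376 CPM (counts scaled to a common library total). Immune-gated barcodes made up 4.59 to 8.28% of the lung libraries despite the GFP sort. Pairs of libraries shared 0 to 30 barcode sequences. Values below are CPM of summed UMIs with 95% exact Poisson intervals, and ratios are log2 of bleomycin over PBS or of fibrogenic over normal with 95% exact conditional intervals. These intervals cover counting error only, and leave out the spread between mice and the spread between barcodes of a gate. A lower sum can come from fewer cells with a transcript or from less transcript per cell, which sums cannot tell apart.

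The channel Piezo2 was the member with the highest ratio in lung FBs, after either regimen. Piezo2 stood at 1.97 CPM in FBs of the PBS single-dose library (12 UMIs) and at 37.7 CPM after a single bleomycin dose (392 UMIs), a log2 ratio of 4.26 (3.43 to 5.22), or 19.1-fold. In the repetitive experiment it stood at 8.15 CPM with PBS (479 UMIs) and at 126 CPM with bleomycin (7456 UMIs), a ratio of 3.95 (3.81 to 4.08), or 15.4-fold. In both PBS libraries its FB level lay within the counting interval of the immune-gated level, which was 1.87 CPM (0.0473 to 10.4) and 6.89 CPM (3.94 to 11.2). Immune-gated barcodes also held the FB gene Pdgfra there, at 142 and 165 CPM, and their gate did not exclude barcodes that also met the FB limits. With bleomycin their Piezo2 level was 7.46 CPM (6 UMIs), which lay within the interval of its PBS counterpart, and 40.7 CPM, which lay above it, and the FB levels lay above both.

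Piezo1 showed smaller differences in the same direction. It stood at 10.2 CPM with PBS and 21.1 CPM after a single dose, a log2 ratio of 1.05 (0.63 to 1.48), and at 20.6 and 30.5 CPM in the repetitive experiment, a ratio of 0.56 (0.46 to 0.67). Piezo1 was not a fibroblast marker in these libraries, since immune-gated barcodes held 18.7, 19.9, 50.4 and 37.7 CPM and endothelial-gated barcodes 52.0, 40.8, 80.6 and 73.1 CPM across the same 4 libraries. The FB level was the lowest of the 3 gates in both PBS libraries, although its interval met that of immune-gated barcodes in the single-dose one. The immune and endothelial gates could hold barcodes that also met the FB limits.

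Counted by single barcodes, the share with a Piezo2 UMI was also higher with bleomycin. At such low counts this share largely follows the CPM, so it cannot tell more cells with a transcript from more transcript per cell. After each barcode was thinned to 2000 UMIs, 0.346% of FBs held a Piezo2 UMI in the PBS single-dose library (0.0714 to 1.01, exact Clopper-Pearson) and 5.78% in its bleomycin counterpart (4.28 to 7.61). The share was 1.10% (0.836 to 1.42) with PBS and 14.5% (13.5 to 15.4) with bleomycin in the repetitive experiment. Immune-gated barcodes, which in the bleomycin repetitive library held Pdgfra at 128 CPM against 376 CPM in FBs, held a Piezo2 UMI in 0% and 1.22% in the first experiment and 0.37% and 6.31% in the second. The FB share was above the immune share in each bleomycin library by more than the counting interval in the repetitive experiment, and the intervals met in the single-dose one. Median depths were 6800, 11437, 10512 and 3849 UMIs in FB-gated and 6510, 6677.5, 4493 and 3341 UMIs in immune-gated barcodes, and thinning left out 48, 26, 115 and 2375 FBs that were too shallow.

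The co-activators themselves stood near the same level with PBS and bleomycin. Yap1 was at 34.2 and 34.7 CPM in the single-dose experiment, a log2 ratio of 0.02 (-0.23 to 0.27), and at 65.9 and 53.6 CPM in the repetitive one, a ratio of -0.30 (-0.36 to -0.23). Wwtr1 was at 76.5 and 71.6 CPM, a ratio of -0.10 (-0.26 to 0.07), and then at 247 and 203 CPM, a ratio of -0.28 (-0.32 to -0.25). Tead1, their DNA-binding partner, was higher with bleomycin in both experiments, at 40.5 and 66.0 CPM (0.71, 0.49 to 0.92) and at 137 and 170 CPM (0.31, 0.27 to 0.35). The 2 co-activators were thus level or slightly lower, while Tead1 was 1.63-fold and 1.24-fold higher. Levels were not compared between the 2 experiments, whose count tables held different gene sets.

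Of the target genes, Cyr61 and Amotl2 were lower with bleomycin in both experiments. Cyr61 stood at 1086 CPM with PBS and 596 CPM after a single dose, a log2 ratio of -0.87 (-0.92 to -0.82), and at 1289 and 466 CPM in the repetitive experiment, a ratio of -1.47 (-1.49 to -1.45). Amotl2 stood at 80.5 and 47.5 CPM, a ratio of -0.76 (-0.94 to -0.58), and at 82.5 and 44.3 CPM, a ratio of -0.90 (-0.97 to -0.83). The direction was the opposite of that of Piezo2. Ctgf did not follow one direction: it was at 133 and 137 CPM in the single-dose experiment, a ratio of 0.04 (-0.09 to 0.16), and at 390 and 272 CPM in the repetitive one, a ratio of -0.52 (-0.55 to -0.49).

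Ankrd1 was sparse in lung FBs. It held 5 UMIs with PBS (0.823 CPM) and 56 UMIs after a single bleomycin dose (5.39 CPM), a log2 ratio of 2.71 (1.40 to 4.39), but 33 of the 56 UMIs lay in 1 barcode, which was gated as proliferating. Without the MyoFB- and proliferating-gated barcodes the ratio was 1.51, with the barcode richest in Ankrd1 dropped from both libraries it was 2.18, and with 10 CPM added to both sides it was 0.51. In the repetitive experiment Ankrd1 stood at 1.16 and 1.55 CPM, a ratio of 0.42 (-0.04 to 0.90). The thinned share of FBs with an Ankrd1 UMI was 0.115%, 0.492%, 0.133% and 0.286% in the 4 libraries.

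**Figure D1:**
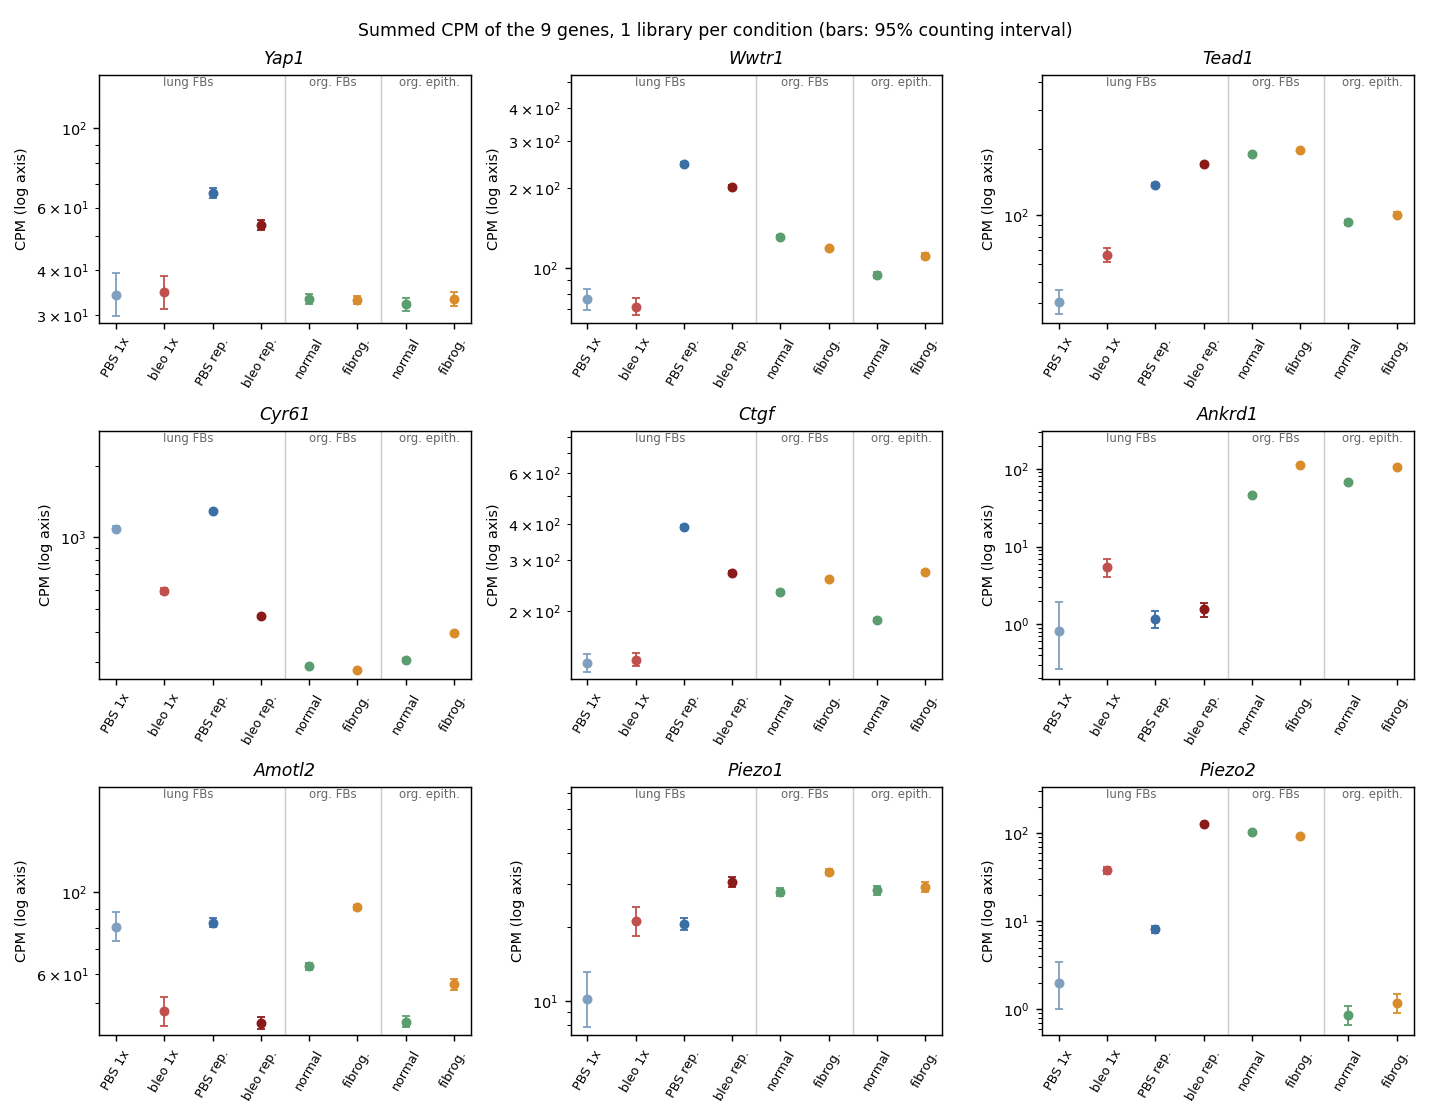
Each panel plots 1 gene's summed CPM on a log axis in lung FBs (4 libraries), organoid FBs (2 libraries) and organoid epithelium (the same 2 libraries), with points for libraries and bars for 95% counting intervals. Piezo2 was at 37.7 and 126 CPM with bleomycin against 1.97 and 8.15 CPM with PBS, and Cyr61 was at 596 and 466 CPM against 1086 and 1289 CPM.

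Few members were past 2-fold, and their counts are given beside the share of all genes. In the single-dose comparison 3 of 9 members were at least 2-fold higher with bleomycin, namely Piezo2, Ankrd1 and Piezo1, where 11.7% of the genes measured were as well, and 0 of 9 were at least 2-fold lower, where 5.03% of genes were. In the repetitive comparison 1 member, Piezo2, was at least 2-fold higher, against 13.2% of genes, and 1 member, Cyr61, was at least 2-fold lower, against 4.45% of genes. The median log2 ratio of all genes was 0.10 and 0.12.

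**Figure D2:**
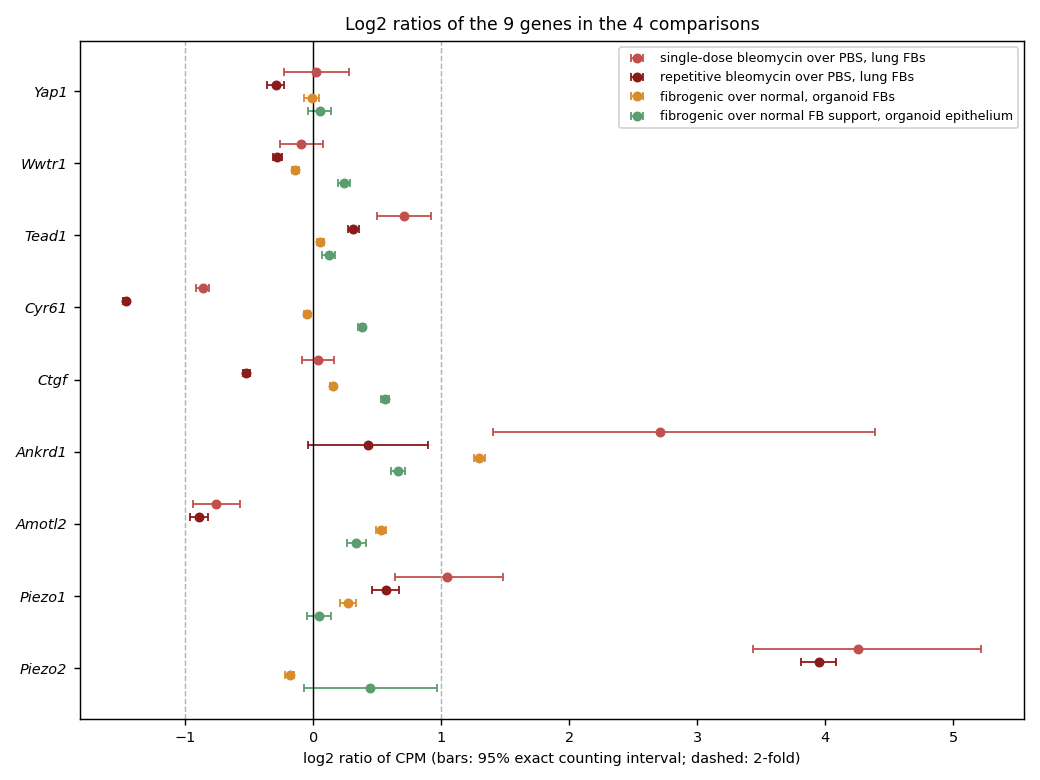
The plot shows the log2 ratio of CPM for each gene in the 4 comparisons between conditions, with 95% exact counting intervals as bars and 2-fold as dashed lines. Piezo2 in lung FBs lies farthest to the right, at 4.26 and 3.95, and Cyr61 after repetitive bleomycin farthest to the left, at -1.47.

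Gates for FB subsets showed where the members were found. LipoFBs, the lipid-handling FBs of the alveolar niche, numbered 754, 290, 4156 and 2539 barcodes in the 4 libraries, and MatrixFBs 88, 176, 678 and 2579. Barcodes that met the limits of myofibroblasts (MyoFBs) and of no other subset were found with bleomycin only, 57 and 130 in number. In the bleomycin libraries 288 and 1717 FBs met no subset's limit. FBs that met the limits of more than 1 subset, 45, 12, 459 and 634 in the 4 libraries, were set apart. Subset gates used FB marker genes that themselves differed between conditions, so that their sizes are no result. With the limits halved or doubled, 29.2 to 52.6% of barcodes moved in or out of some gate.

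Piezo2 differed between PBS and bleomycin within the LipoFB gate as well. In LipoFBs it stood at 0.995 CPM (5 UMIs) and 16.9 CPM (57 UMIs) in the single-dose experiment, a log2 ratio of 4.09 (2.78 to 5.77), and at 5.95 and 88.8 CPM in the repetitive one, a ratio of 3.90 (3.72 to 4.09). In MatrixFBs it stood at 7.50 and 20.7 CPM, a ratio of 1.46 whose interval reached 0 (-0.04 to 3.43), and at 19.2 and 61.4 CPM, a ratio of 1.68 (1.40 to 1.97). The LipoFB ratio was thus close to that of all FBs in both experiments, and the MatrixFB ratio was smaller. Within the LipoFB gate the MyoFB marker list also went from 16.9 to 767 summed CPM in the single-dose experiment and from 203 to 595 CPM in the repetitive one, with 5 of 5 genes higher, and its part in the LipoFB ratio was not tested. In LipoFBs, 2 of the members past the minimum of UMIs were at least 2-fold higher after a single dose (Piezo1 and Piezo2), where 6.59% of genes were, and 1 (Piezo2) after repetitive doses, where 9.69% were. At least 2-fold lower were 0 members after a single dose, against 4.8% of genes, and 2 members (Cyr61 and Amotl2) after repetitive doses, against 4.23%.

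Within the bleomycin libraries Piezo2 was highest in MyoFBs, the contractile, matrix-producing FBs of the fibrotic lung. After a single dose it was at 93.6 CPM in MyoFBs (75.7 to 114) against 16.9 CPM in LipoFBs, a log2 ratio of 2.47 (1.98 to 2.97), and after repetitive doses at 546 CPM (514 to 580) against 88.8 CPM, a ratio of 2.62 (2.51 to 2.73). Among members with at least 20 UMIs over both groups, it was the only one at least 2-fold higher in MyoFBs in either library, where 6.43% and 7.65% of genes were. After repetitive doses the order ran from MyoFBs through endothelial-gated barcodes (209 CPM, 173 to 250) and FBs outside the subset gates (198 CPM, 191 to 206), whose intervals overlapped, to LipoFBs (88.8 CPM, 85.1 to 92.7), MatrixFBs (61.4 CPM, 57.4 to 65.5) and immune-gated barcodes (40.7 CPM, 35.5 to 46.6). After a single dose FBs outside the gates were at 49.4 CPM (42.7 to 56.8), while MatrixFBs (20.7 CPM, 14.1 to 29.4) and LipoFBs (16.9 CPM, 12.8 to 21.9) did not differ beyond counting error.

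The Piezo2 UMIs of FBs were spread over several gates. MyoFBs held 24.2% and 14.5% of Piezo2 UMIs of FBs in the bleomycin libraries, with 9.77% and 3.34% of all UMIs of FBs, while FBs outside the subset gates held 50.3% and 39.6% and LipoFBs 14.5% and 28.5%. Without the MyoFB and proliferating gates the ratio of all FBs was 4.03 and 3.77. By barcodes with a UMI after thinning, 14.3% and 45.9% of MyoFBs were positive. In the repetitive library 1 barcode held 10.9% of the Piezo2 UMIs of MyoFBs and 10 barcodes held 51.3%.

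Piezo1 was spread more evenly over the subsets. In LipoFBs it stood at 8.76 and 20.2 CPM in the single-dose experiment, a log2 ratio of 1.21, and at 18.3 and 26.3 CPM in the repetitive one, a ratio of 0.52. In MatrixFBs it held 8 and 21 UMIs (-0.10, -1.33 to 1.29), and then stood at 26.4 and 28.6 CPM (0.12, -0.15 to 0.39), with both intervals across 0. The ratio of MyoFBs to LipoFBs was 0.16 and 0.69. Both channel genes were thus higher in LipoFBs of the bleomycin libraries, Piezo2 by the wider margin.

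Ctgf, a target gene also known as a product of MyoFBs, was higher in MyoFBs than in LipoFBs of both bleomycin libraries. It stood at 203 against 120 CPM after a single dose, a log2 ratio of 0.75 (0.50 to 1.00), and at 505 against 286 CPM after repetitive doses, a ratio of 0.82 (0.72 to 0.91). In the repetitive library this value depended on few barcodes, since 1 barcode held 17.9% and 10 barcodes 72.9% of the Ctgf UMIs of MyoFBs, and the ratio was -0.18 with the gate limits doubled. Between conditions, Ctgf in LipoFBs stood at 137 and 120 CPM (-0.19) and at 440 and 286 CPM (-0.62). Tead1 in LipoFBs was 1.54-fold and 1.29-fold higher with bleomycin. In MatrixFBs Tead1 was 1.04-fold and 1.08-fold higher, with both intervals across 0.

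Cyr61 was lower with bleomycin within LipoFBs and MatrixFBs, and Amotl2 within LipoFBs and, after repetitive doses, within MatrixFBs. The log2 ratio of Cyr61 was -0.71 and -1.36 in LipoFBs. In MatrixFBs it stood at 1376 and 442 CPM (-1.64) in the single-dose experiment and at 1320.2 and 383 CPM (-1.78) in the repetitive one. Amotl2 in LipoFBs stood at 83.0 and 47.8 CPM (-0.79) and at 85.0 and 41.4 CPM (-1.04). In MatrixFBs it stood at 67.5 and 74.1 CPM (0.13, -0.42 to 0.72) in the single-dose experiment and at 79.4 and 50.2 CPM (-0.66, -0.83 to -0.49) in the repetitive one. The Cyr61 ratio of MyoFBs to LipoFBs was -0.57 and -0.48, the opposite direction to Ctgf in this comparison at the limits used. In MatrixFBs over LipoFBs of the repetitive bleomycin library both were lower, Ctgf at -0.20 and Cyr61 at -0.41.

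**Figure D3:**
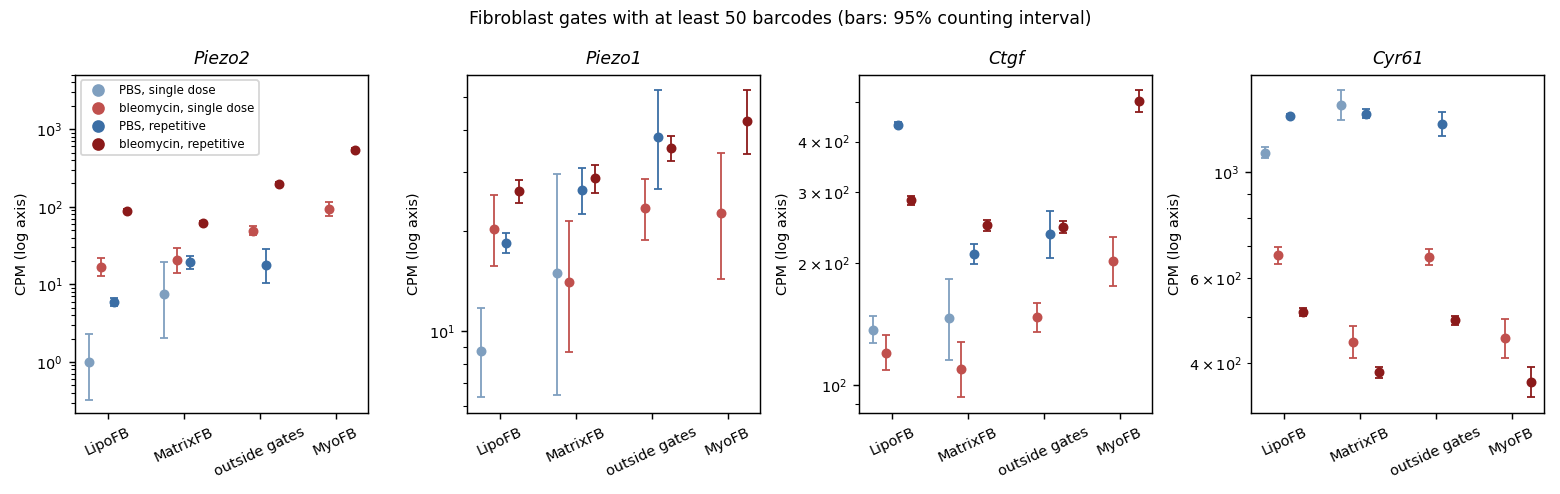
The plot gives the CPM of Piezo2, Piezo1, Ctgf and Cyr61 on log axes for FB gates with at least 50 barcodes, coloured by library, with 95% counting intervals. Piezo2 reaches 93.6 and 546 CPM in MyoFBs, Ctgf 203 and 505 CPM, and Cyr61 is at 366 to 451 CPM there.

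Cyr61 is induced within minutes by serum, stretch or tissue handling, as are the immediate early genes (IEGs) such as Fos and Egr1, so a list of 12 IEGs was set beside it. The summed IEG level of FBs was 12264 CPM with PBS and 4544 CPM after a single dose of bleomycin, with 11 of 12 genes lower, and 15993 and 8348 CPM in the repetitive experiment, with 12 of 12 lower. LipoFB barcodes of each library were then split into 3 equal parts by their IEG share. From the lowest to the highest part, Cyr61 ran from 206 to 1959 CPM (PBS single-dose), from 264 to 1217 (bleomycin single-dose), from 161 to 2266 (PBS repetitive) and from 82.7 to 1116 CPM (bleomycin repetitive). Cyr61 thus followed the IEG share within every library.

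Set side by side within parts, the Cyr61 difference was not the same throughout. In the single-dose experiment bleomycin over PBS gave a log2 ratio of 0.36 (0.12 to 0.60) in the lowest part, -0.83 in the middle and -0.69 in the highest. In the repetitive experiment it was -0.96, -2.08 and -1.02. So Cyr61 was higher with bleomycin in the lowest part of the single-dose experiment and lower in the other 5. The parts were cut within each library, and the same part does not mean the same IEG level in both libraries of a pair.

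Ctgf did not follow the IEG split upward in the bleomycin libraries. From the lowest to the highest part, its log2 ratio was 0.40 and 0.53 in the PBS single-dose and PBS repetitive libraries, and -0.26 (-0.62 to 0.09) and -0.40 (-0.48 to -0.32) in their bleomycin counterparts.

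Within parts, the bleomycin over PBS ratio of Amotl2 was -0.44, -0.73 and -1.07 from the lowest to the highest part of the single-dose experiment and -0.89, -1.04 and -1.08 in the repetitive one. For Ctgf it was 0.14, -0.11 and -0.52, and then -0.13, -0.59 and -1.06. For Tead1 it was 1.21, 0.53 and 0.35 (-0.13 to 0.82), and then 0.59, 0.39 and 0.17. Amotl2 was lower with bleomycin in all 6 parts, although in the lowest part of the single-dose experiment its interval reached 0 (-0.96 to 0.06). Piezo2 was higher in all 6, with ratios of 3.78 to 4.05 in the repetitive experiment. In the single-dose one the PBS parts held 2, 2 and 1 Piezo2 UMIs, and the ratios were 4.11 (2.12 to 7.23), 3.51 (1.40 to 6.68) and 4.70 (2.01 to 10.1).

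Among thinned LipoFBs, Cyr61 was found more often in barcodes with a Fos UMI than without one. The shares were 62.9% against 28.8% in the PBS single-dose library, 58.5% against 40.6% in its bleomycin counterpart, 77.2% against 27.0% in the PBS repetitive library and 54.7% against 18.5% in the bleomycin repetitive one. For Ctgf the same split gave 21.3% against 16.7%, 17.9% against 18.3%, 42.5% against 38.3% and 33.7% against 32.8%. Co-detection with Fos was thus a feature of Cyr61 more than of Ctgf in these libraries. Over all FBs the thinned share with a Cyr61 UMI was 52.8%, 47.5%, 59.2% and 35.8%, against 19.4%, 11.0%, 14.1% and 20.2% in immune-gated barcodes.

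**Figure D4:**
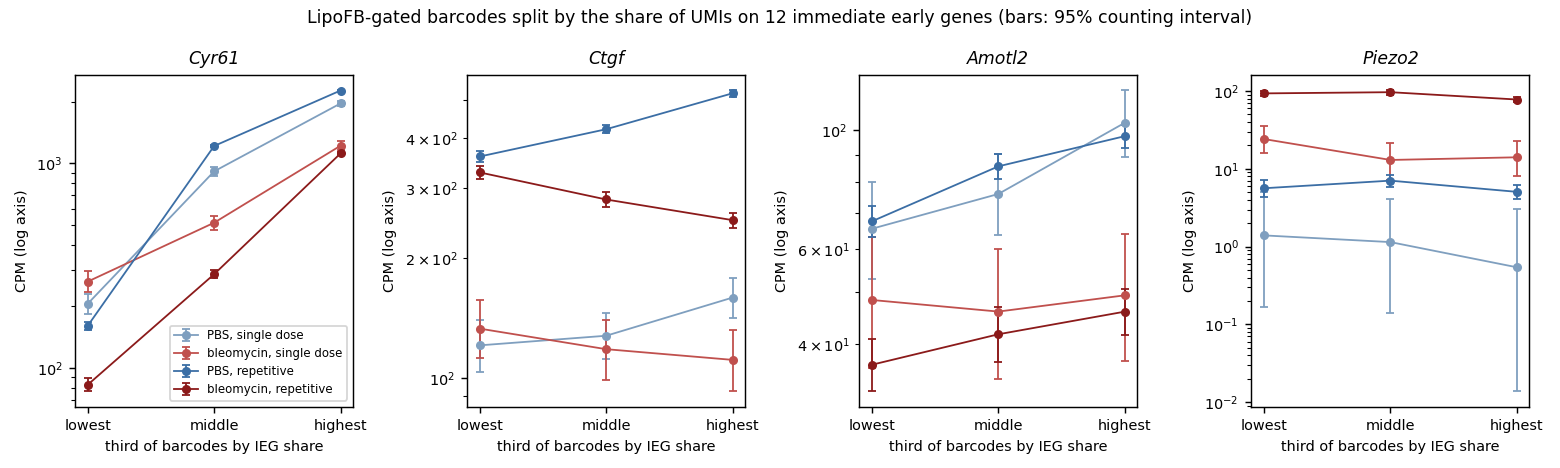
The plot gives CPM on log axes for Cyr61, Ctgf, Amotl2 and Piezo2 in LipoFB barcodes split into 3 parts by the share of UMIs on 12 IEGs, 1 line per library, with 95% counting intervals. Cyr61 runs up to 1116 to 2266 CPM in the highest part of all 4 libraries, and the Piezo2 lines stay apart between PBS and bleomycin.

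Other markers moved with the bleomycin comparisons as well. The MyoFB marker list went from 26.2 to 4714 summed CPM in FBs of the single-dose experiment and from 170 to 1991 CPM in the repetitive one, with 5 of 5 genes higher. The proliferation list went from 2.96 to 95.9 and from 5.36 to 48.4 CPM, the smooth muscle and mural list from 4.77 to 42.3 and from 6.12 to 25.9 CPM, and the immune list from 16.9 to 46.1 and from 7.28 to 78.6 CPM. In both experiments 6 of 6 proliferation genes, 5 of 6 smooth muscle and mural genes and 8 of 8 immune genes were higher. The FB list that set the FB gate went from 9629 to 21942 and from 6343 to 16461 CPM, with 5 of 6 genes higher. The mesothelial sum was lower, going from 196 to 114 and from 161 to 93.7 CPM, with 5 and 1 of its 6 genes higher. The endothelial list went from 60.9 to 78.4 and from 32.8 to 55.0 CPM in FBs, with 2 and 3 of its 6 genes higher. Endothelial-gated barcodes held Piezo2 at 135 and 209 CPM in the repetitive libraries, and Pdgfra at 339 and 127 CPM. Their gate did not exclude barcodes that also met the FB limits. The part of these cell types in the Piezo2 ratio was not tested.

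In organoid epithelium, Ankrd1 and Ctgf were highest in the PATS gate, while Amotl2 and Tead1 were highest in AEC1s or in barcodes shared by both gates. PATS, the transitional state between AEC2s and alveolar type 1 cells (AEC1s) marked by keratins, was gated in 184 and 283 barcodes of organoids with normal and fibrogenic FBs, AEC2s in 1020 and 864, and AEC1s in 190 and 208. Ankrd1 stood at 2.00 CPM in AEC2s and 590 CPM in PATS with normal FBs, a log2 ratio of 8.20 (7.90 to 8.52), and at 1.71 and 553 CPM with fibrogenic FBs, a ratio of 8.33 (7.95 to 8.74). Ctgf stood at 10.8 and 1434 CPM with normal FBs, a ratio of 7.05 (6.92 to 7.19), and at 15.5 and 1356 CPM with fibrogenic FBs, a ratio of 6.45 (6.32 to 6.58). These ratios depended on the gate limits. With the limits doubled, Ankrd1 gave 4.99 and 5.25 and Ctgf 4.41 and 4.77, and with the limits halved Ctgf gave 7.85 and 6.91 and, with normal FBs, Ankrd1 gave 10.26. As a measure of free RNA, Col1a1, an FB gene, stood in epithelium at 0.778% and 1.24% of its FB level, and its part in the low AEC2 levels was not tested.

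The other targets differed less between PATS and AEC2s. Cyr61 stood at 207 and 727 CPM with normal FBs (1.81) and at 243 and 741 CPM with fibrogenic FBs (1.61). Amotl2 gave ratios of 1.27 and 1.01. Upstream, Tead1 gave 1.02 and 0.82, Wwtr1 0.88 and 0.69, and Yap1 0.31 and 0.49. Of the TEAD factors outside the members, Tead2 gave 4.40 and 3.76, Tead3 0.81 and 0.47, and Tead4 0.84 and 1.53. Of the VGLL factors, Vgll3 gave 4.40 and 2.94, and Vgll4 -0.03 and 0.03. All 9 members were higher in PATS than in AEC2s in both libraries, and 6 of 9 with normal FBs and 5 of 9 with fibrogenic FBs were at least 2-fold higher, where 19.6% and 18.1% of genes were. These counts include Piezo2, at 14.0-fold with normal and 4.25-fold with fibrogenic FBs. The FB gene Col1a1 was also higher in PATS, at 62.5 against 14.5 CPM and at 60.3 against 33.8 CPM. The part of FB RNA in the Piezo2, Tead2 and Vgll3 ratios was not tested. The median ratio of all genes was 0.22 and 0.19, and the Yap1 value with normal FBs turned to -0.03 under TMM scaling.

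PATS barcodes held most of the epithelial Ankrd1 and Ctgf transcripts, but not of the other targets. They accounted for 93.2% and 85.2% of epithelial Ankrd1 UMIs and 81.6% and 80.5% of Ctgf UMIs, with 10.6% and 16.3% of all epithelial UMIs. Of Cyr61 UMIs they held 25.2% and 30.4%, and of Amotl2 UMIs 18.4% and 23.7%. After thinning, a Ctgf UMI was found in 75.6% and 78.7% of PATS barcodes against 2.21% and 2.84% of AEC2s, and an Ankrd1 UMI in 41.3% and 28.3% against 0.1% and 0.741%. Ctgf was thus a gene of most PATS barcodes at this depth and Ankrd1 of a minority. In the fibrogenic library, 31 of the 55 Ankrd1 UMIs of AEC2s lay in 1 barcode.

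AEC1s, the flat gas-exchange cells, shared part of this pattern. AEC1-gated barcodes still held Sftpc, an AEC2 marker, at 30869 and 30668 CPM, against 83370 and 85747 CPM in AEC2s and 3488 and 2115 CPM in organoid FBs. The AEC1 gate did not exclude barcodes that also met the AEC2 limits, and the source of this Sftpc was not tested. Tead1 stood at 66.4 CPM in AEC2s and 220 CPM in AEC1s with normal FBs (1.73) and at 73.4 and 210 CPM with fibrogenic FBs (1.52), which was a higher level than in PATS. Wwtr1 gave log2 ratios of 1.20 and 0.78, Amotl2 1.54 and 1.41, Cyr61 1.29 and 1.29, and Ctgf 3.33 and 3.20. With the gate limits doubled, Ctgf gave 0.75 and 2.23. Piezo1 stood at 23.2 and 47.4 CPM with normal FBs (1.03) and gave 1.02 with fibrogenic FBs. At least 2-fold higher in AEC1s were 6 members in each library, where 11.6% and 10.2% of genes were. Wwtr1 was among them with normal FBs only (2.30-fold), and Ankrd1 with fibrogenic FBs only (11.3-fold). That Ankrd1 value depended on few barcodes and on the gate limits, as given below.

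Ankrd1 separated AEC1s from PATS. With normal FBs it stood at 2.71 CPM in AEC1s, a log2 ratio to AEC2s of 0.44 (-0.38 to 1.18). With fibrogenic FBs it stood at 19.3 CPM (3.49), but 54 of those 110 UMIs lay in 1 barcode, and the ratio was 0.26 with the gate limits halved. Yap1 did not differ between AEC1s and AEC2s beyond counting error, at -0.07 (-0.29 to 0.15) and 0.03 (-0.21 to 0.26).

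**Figure D5:**
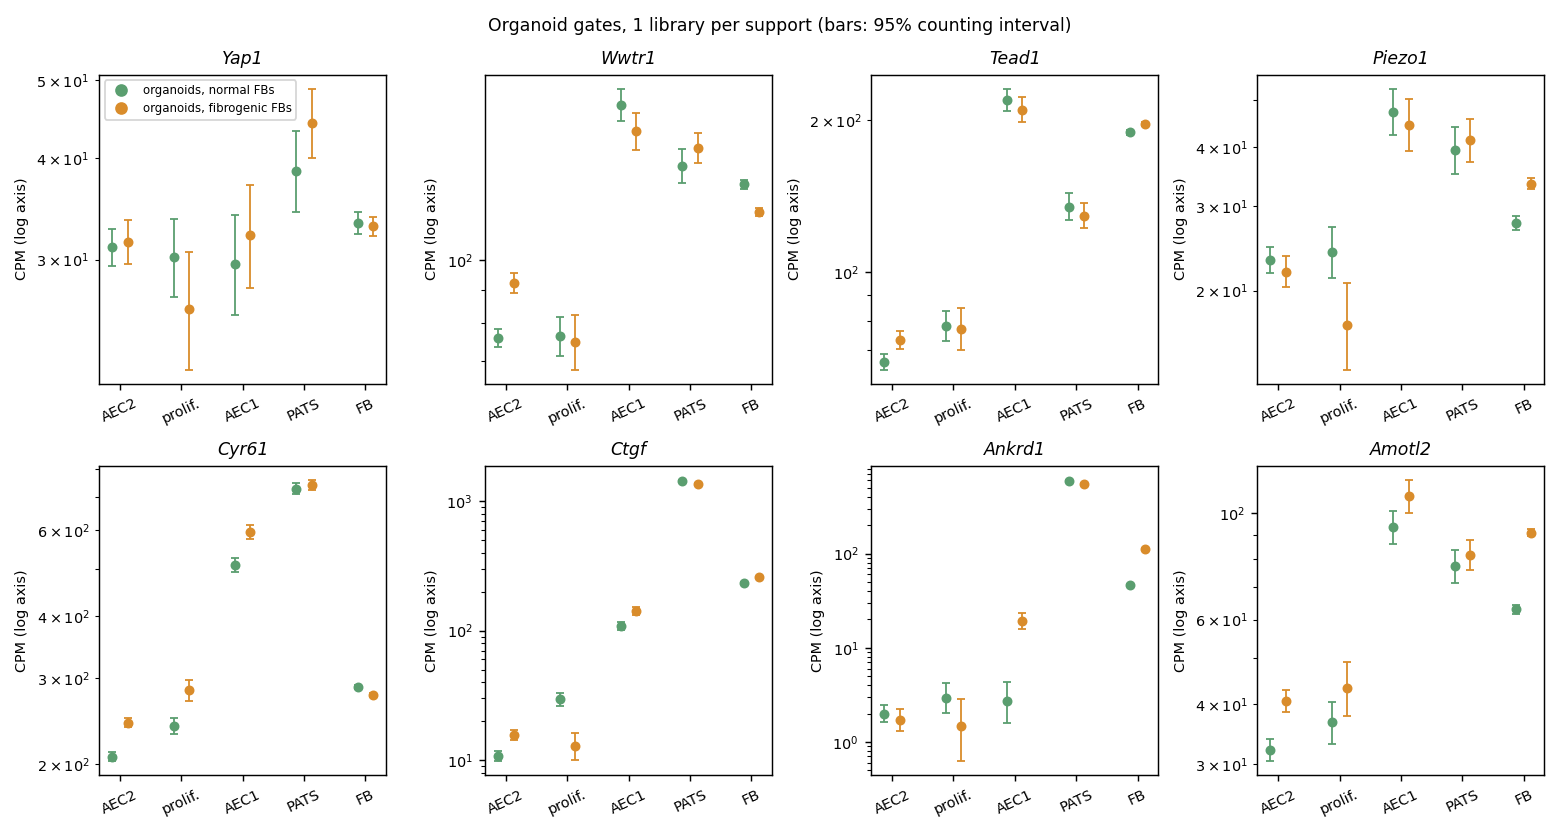
The plot gives CPM on log axes for 8 members in the organoid gates AEC2, proliferating epithelium, AEC1, PATS and FB, for both organoid libraries, with 95% counting intervals. Ankrd1 is at 590 and 553 CPM and Ctgf at 1434 and 1356 CPM in PATS, while Tead1 is highest in AEC1s, at 220 and 210 CPM.

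Between organoids with fibrogenic and normal FBs, the whole epithelium showed small ratios. Ctgf stood at 186 CPM with normal and 274 CPM with fibrogenic FBs, a log2 ratio of 0.56 (0.53 to 0.59). Ankrd1 stood at 67.0 and 106 CPM (0.66, 0.60 to 0.71), and Cyr61 at 306 and 397 CPM (0.38, 0.35 to 0.40). Amotl2 gave 0.34, Wwtr1 0.24, Tead1 0.12, Yap1 0.05 and Piezo1 0.04, and 0 members were past 2-fold in either direction, where 2.8% of genes were higher and 0.946% lower. All 4 target genes were thus higher in the epithelium with fibrogenic FBs, by less than 2-fold. In the same comparison the AEC2 marker list stood at 76383 and 67394 summed CPM and the IEG list at 3006 and 3557 CPM, with 11 of 12 IEGs higher. The FB list stood in the epithelium at 84.2 and 149 CPM (6 of 6 genes higher), the epithelial list at 2842 and 3674 CPM (6 of 6) and the MyoFB list at 291 and 393 CPM (4 of 5). The part of these lists in the target ratios was not tested.

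Within PATS the same targets stood near the same level with either FB source. The log2 ratio was 0.03 (-0.02 to 0.08) for Cyr61, -0.08 (-0.12 to -0.04) for Ctgf, -0.09 (-0.15 to -0.04) for Ankrd1 and 0.08 (-0.08 to 0.23) for Amotl2. PATS barcodes made up 10.8% of epithelial barcodes with normal FBs and 16.8% with fibrogenic FBs. Within AEC2s, Ctgf gave 0.52 (10.8 and 15.5 CPM), Amotl2 0.34, Wwtr1 0.28 and Cyr61 0.23, and Ankrd1 gave -0.22 (-0.73 to 0.28). Piezo2 had the highest ratio of the members there, at 2.13-fold with its interval above 0. The FB gene Col1a1 stood at 14.5 and 33.8 CPM in these AEC2s, and the part of FB RNA was not tested. The Ctgf value within AEC2s turned to -0.62 with the gate limits doubled, and within AEC1s Ctgf gave 0.39 and Cyr61 0.22. Ankrd1 within AEC1s gave 2.83 (2.11 to 3.64), from 18 and 110 UMIs, of which 54 of the 110 lay in the 1 barcode named above, and it was 0.63 with the gate limits halved and 0.17 with them doubled.

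FBs recovered from the organoids differed in Ankrd1. It stood at 45.9 CPM in normal and 113 CPM in fibrogenic organoid FBs, a log2 ratio of 1.30 (1.25 to 1.34), the 1 member past 2-fold, where 2.3% of genes were higher and 3.91% lower. As the mean of CPM per barcode the ratio was 0.61. Median depth was 48172 UMIs in normal and 6264.5 in fibrogenic organoid FBs, the MyoFB list stood at 21893 and 14588 summed CPM (2 of 5 genes higher), and the smooth muscle and mural list at 64.5 and 96.5 CPM (4 of 6 higher). Their part in the Ankrd1 ratio was not tested. Amotl2 stood at 63.0 and 90.9 CPM (0.53, 0.49 to 0.57), Ctgf at 234 and 259 CPM (0.15) and Cyr61 at 287 and 277 CPM (-0.05). Amotl2 was thus higher in fibrogenic organoid FBs, where freshly sorted FBs of bleomycin-treated mice had the lower level.

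Piezo2 in organoid FBs did not repeat the direction seen in the lung. It stood at 104 CPM in normal and 91.8 CPM in fibrogenic organoid FBs, a log2 ratio of -0.18 (-0.22 to -0.15). Normal organoid FBs thus held a Piezo2 level of 104 CPM after culture, where the FBs of the PBS lungs held 1.97 and 8.15 CPM, values that come from separately prepared libraries and are set side by side only. Piezo1 was higher in fibrogenic organoid FBs, as it was with bleomycin in the lung, at 27.7 and 33.5 CPM (0.27, 0.21 to 0.33). In the epithelium Piezo2 was at 0.866 and 1.18 CPM, where the part of free RNA from FBs was not tested.

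Lists of related genes put the members beside their pathway. Of Hippo kinases and adaptors, which restrain YAP, 17 could be measured in FBs of both experiments, and 1 (Amot, 2.31) was at least 2-fold higher after a single dose and 0 after repetitive doses, where 11.7% and 13.2% of all genes were, with medians of 0.32 and 0.20 against 0.10 and 0.12 for all genes. Their range ran from Sav1 at -0.38 to Amot after a single dose and from Lats2 at -0.28 to Ptpn14 at 0.85 after repetitive doses. Of the other TEAD and VGLL factors, 4 and 5 could be measured and 0 were past 2-fold, from Vgll4 at -0.73 to Tead3 at 0.01 and from Vgll3 at -0.67 to Tead4 at 0.69, with medians of -0.14 and 0.19.

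Of the other 18 YAP and TAZ target genes more lay above 0 than below, and Lats2 and Ptpn14 are also on the Hippo list. In each experiment 5 were at least 2-fold higher with bleomycin, where 11.7% and 13.2% of all genes were, and 1 at least 2-fold lower, where 5.03% and 4.45% were, with 15 above 0 and 3 below, and medians of 0.41 and 0.40 against 0.10 and 0.12 for all genes. The lowest was Igfbp3, an insulin-like growth factor binding protein, at 642 and 29.3 CPM after a single dose (-4.46) and at 500.4 and 71.3 CPM after repetitive doses (-2.81). The highest was Fjx1 after a single dose (3.03, from 4 and 56 UMIs) and Ccdc80, a matrix protein, after repetitive doses, at 63.1 and 267 CPM (2.08). Cyr61 and Amotl2 lay below 0, as 3 of the 18 did.

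Genes of the actin-sensing MRTF and SRF pathway, which shares several targets with YAP, were also listed. The list held the factors themselves (Srf, Mkl1 and Mkl2) as well as genes they drive. Of 10, 5 and 6 were at least 2-fold higher and 0 lower, with medians of 1.07 and 1.03, where 11.7% and 13.2% of all genes were at least 2-fold higher. Cnn1, a smooth muscle calponin, was highest, with 1 and 102 UMIs after a single dose (5.90, 3.39 to 11.2) and 6 and 82 UMIs after repetitive doses (3.76), and Srf (-0.56) and Vcl (-0.79) were lowest. Of the other mechanosensitive channels, 8 and 13 could be measured, of which 0 and 3 were at least 2-fold higher and 2 and 1 lower, where 5.03% and 4.45% of all genes were at least 2-fold lower. Kcnk2, a stretch-gated potassium channel, stood at 61.4 and 10.8 CPM (-2.51) and at 65.0 and 21.1 CPM (-1.63), and Trpc6, a receptor-operated cation channel, had the highest ratio after repetitive doses (5 and 304 UMIs, 5.91). The smooth muscle and mural marker list, which holds none of these genes, was also higher with bleomycin (4.77 to 42.3 and 6.12 to 25.9 summed CPM), and the part of mural cells in the ratios was not tested.

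In the organoid comparisons the same lists gave few ratios past 2-fold. In epithelium, other targets gave 1 of 17 at least 2-fold higher (Igfbp3, 1.12), where 2.8% of genes were, and a median of 0.32, against 0.05 for all genes. In organoid FBs they gave 1 of 18 at least 2-fold higher (Igfbp3 again, 1.01), where 2.3% of genes were, and a median of -0.05, against -0.03. Hippo genes had medians of 0.08 and 0.02 with 0 past 2-fold in both, and MRTF and SRF genes medians of 0.28 and 0.37, with 1 higher (Cnn1, 1.11) in organoid FBs. Trpc6 was lower in fibrogenic organoid FBs, at 2.76 and 0.55 CPM (-2.32).

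Across 29 groups of library and gate, the genes whose CPM pattern most resembled each member were ranked over 10197 genes by Pearson's r, as a description, since the groups share libraries and depth. The groups also pool the single-dose, repetitive and organoid experiments, whose count tables did not all hold the same genes. An offset in level between experiments can therefore enter these values, and its part was not tested. Piezo2 was closest to Npr3 (0.93), Vegfc (0.93) and Csgalnact1 (0.92), and these 3 were also the closest by Spearman's rho. Ankrd1 was closest to Acta1 (0.92), Ctgf to Rab2a (0.96), Cyr61 to Camk2n1 (0.87), Amotl2 to Cgrrf1 (0.81), Piezo1 to Pdcd6ip (0.91), Tead1 to Fndc3b (0.91), Wwtr1 to Pura (0.93) and Yap1 to Gkap1 (0.87). No member was among the 3 closest genes of another. Between members, r was 0.76 for Yap1 with Wwtr1, 0.76 for Wwtr1 with Tead1, 0.68 for Cyr61 with Amotl2 and 0.01 for Cyr61 with Piezo2.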

How the data were processed

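Single-cell RNA-seq of GFP+ lung FBs (4 libraries) and of alveolar organoids (2 libraries) was used. The authors deposited tables of UMI counts per gene and barcode, made per the submitters' processing notes with Cell Ranger 3.0.1 and Seurat 3 on mm10. The study's methods name the GRCm38 genome with a filtered Gencode annotation. The number of gene rows differed between experiments, and which annotation release each table used is unclear. The single-dose tables name the rows Cyr61 and Ctgf; in the tables of 32285 genes, the rows Ccn1 and Ccn2 were read as Cyr61 and Ctgf.

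Barcodes with at least 1000 UMIs and at most 15% mitochondrial UMIs were kept, which removed 14 to 2100 per library. A barcode was gated as FB with at least 0.2% of UMIs on FB markers and 2 markers detected. Other cell types needed 0.1% and 2 markers, FB subsets 0.5% and 3 markers, rare types 0.05% and 3 markers, and AEC2s 2% in organoids. In lung libraries, barcodes that met the limits of more than 1 type other than FB were set aside as mixed. A lung barcode that met FB limits and those of 1 other type took the other type's label. FBs that met the limits of more than 1 subset were likewise set apart. In organoids, barcodes that met both FB and epithelial limits were set aside as mixed. Epithelial barcodes that met the AEC1 or PATS limits took those labels even where they also met the AEC2 limits. Doublets were not called. Halving or doubling the limits moved 4.24 to 31.8% of barcodes between broad types.

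UMIs were summed by library and gate and scaled to CPM. Fold counts used genes with at least 20 UMIs over both groups, a fold of 2, and 27 comparisons in all. Shares of positive barcodes used random thinning to 2000 UMIs. Intervals were 95%, a count of 0 was read against a floor of 3 counts, and scripts were tested on simulated data. All 9 members were named in the main comparisons, and of each list the counts and the genes with the highest and lowest ratios, and for patterns the 3 most similar genes. Igfbp3 and Kcnk2 were named by that rule, and CPM values were added for them afterwards. Outside that rule, all other TEAD and VGLL factors were named in PATS over AEC2s. Members and lists were chosen with earlier results of these data known.

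With 1 library per condition there was no test between conditions. Depth, from 7201081 to 238618743 UMIs per library, sets the counting intervals, and the lowest counts (Piezo2 and Ankrd1 with PBS) had the widest. Alternatives were gate limits halved and doubled, no gate, other UMI minimums, added CPM, the mean of CPM per barcode, TMM scaling (edgeR 4.0.16), Spearman in place of Pearson correlation, and thinning to 1000 UMIs. Python 3.11.15 with numpy 2.4.6, pandas 2.3.3, scipy 1.17.1 and matplotlib 3.10.9, and R 4.3.3, were used.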

Additional observations from a re-analysis of the deposited data

Results flagged for a closer look

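The pairs set side by side were single-dose with repetitive bleomycin over PBS in the same FB gate, and organoid epithelium with organoid FBs by FB source. Among these, 3 cases gave a member ratios on opposite sides of 0 with both counting intervals clear of 0. In none was the difference tested, since each side rests on 1 library per condition. Pairs outside this rule also reversed, such as Piezo2 in MatrixFBs over LipoFBs. It was 3.22-fold higher in the PBS and 1.45-fold lower in the bleomycin repetitive library. Ctgf in MatrixFBs was at -0.42 (-0.82 to -0.01) for single-dose bleomycin over PBS, with 146 and 109 CPM, and at 0.23 (0.14 to 0.33) for repetitive bleomycin over PBS, with 211 and 248 CPM. Wwtr1 was at 0.24 (0.19 to 0.29) for fibrogenic over normal FB support in organoid epithelium and at -0.14 (-0.17 to -0.11) in organoid FBs. Cyr61 was at 0.38 (0.35 to 0.40) in organoid epithelium and at -0.050 (-0.07 to -0.03) in organoid FBs.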

How the results depend on the processing

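Of the 36 member values in the 4 comparisons between conditions, 25 kept their sign under every alternative run. Of the 11 others, 6 had a counting interval that included 0: Yap1 (-0.08 to 0.03 over the alternatives) and Ctgf (-0.06 to 0.06) after a single dose, Yap1 (-0.02 to 0.15), Piezo1 (-0.19 to 0.20) and Piezo2 (-0.15 to 0.72) in organoid epithelium, and Yap1 (-0.12 to 0.02) in organoid FBs. The Piezo2 ratio in FBs ranged from 1.99 to 4.45 after a single dose and from 2.90 to 3.97 after repetitive doses, and the Cyr61 ratio from -0.96 to -0.70 and from -1.60 to -1.42. Ankrd1 in organoid FBs ranged from 0.61 to 1.33 and Ctgf in organoid epithelium from 0.22 to 0.84. The alternatives within subsets and epithelial gates, and those without the barcode with the most UMIs of a member in each library, were added after seeing the data.

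The count of members past 2-fold was 3 after a single dose and 1 with 10 CPM added, 0 in organoid epithelium and 1 without gates, and 1 in organoid FBs and 0 as the mean of CPM per barcode. The count of other targets past 2-fold was 6 after a single dose and 3 with 10 CPM added or with a minimum of 100 UMIs, and 6 after repetitive doses and 3 with 10 CPM added. It was 1 in organoid epithelium, 0 with 1 or 10 CPM added and 2 without a minimum of UMIs, and 1 in organoid FBs, 0 with 1 or 10 CPM added or gate limits halved. Thinning to 1000 UMIs gave Cyr61 shares of 42.4%, 33.4%, 47.8% and 27.4% in FBs of the PBS single-dose, bleomycin single-dose, PBS repetitive and bleomycin repetitive libraries. Of the 27 most similar genes, 9 were shared between Pearson and Spearman rankings.

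Signs also turned in the other 5 and in subset and gate comparisons, and the cause was not tested. With gate limits doubled, the ratio was -0.24 for Amotl2 and 0.096 for Wwtr1 in AEC1s by FB source, -0.62 for Ctgf in AEC2s by FB source, -0.0061 for Tead1 in organoid epithelium, -0.18 for Ctgf and -0.0079 for Tead1 in repetitive MyoFBs over LipoFBs, 0.12 for Wwtr1 in single-dose MyoFBs over LipoFBs and 0.060 for Wwtr1 in repetitive FBs outside the gates over LipoFBs. With limits halved, Wwtr1 in AEC1s was at 0.033. As the mean of CPM per barcode, Ctgf in PATS was at 0.091, Tead1 at -0.032 in organoid epithelium, -0.22 in organoid FBs and -0.015 in repetitive FBs outside the gates over LipoFBs, and Wwtr1 in repetitive MatrixFBs at 0.0097. Over all barcodes of the organoid libraries, epithelium included, the ratio was 0.081 for Cyr61, 0.081 for Piezo2 and 0.0086 for Wwtr1, where the organoid FB ratios lay below 0. With TMM scaling, Yap1 in PATS over AEC2s with normal FBs was at -0.027.

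No paired analysis was possible because each condition had 1 library.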

Other observations

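Within the organoid epithelium, proliferating barcodes (181 with normal and 111 with fibrogenic FBs) held Ctgf and Ankrd1 well below PATS. Ctgf stood there at 29.5 and 12.7 CPM and Ankrd1 at 2.96 and 1.46 CPM, against 1434 and 1356 CPM and 590 and 553 CPM in PATS, while Cyr61 stood at 240 and 283 CPM. Barcodes that met both the AEC1 and the PATS limits, 19 and 53 in number, lay between AEC1s and PATS for both genes, with Ctgf at 310 and 521 CPM and Ankrd1 at 131 and 261 CPM, and held Cyr61 at 749 (688 to 813) and 898 CPM (859 to 939). PATS held it at 727 (708 to 747) and 741 CPM, so that with normal FBs the intervals overlapped.

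In the lung libraries, the few barcodes gated as smooth muscle and mural (2 and 4 in the PBS and bleomycin single-dose, 4 and 18 in the PBS and bleomycin repetitive libraries) held Ctgf at 382, 334, 1578 and 868 CPM. Endothelial-gated barcodes of the repetitive libraries, 123 in each, held Piezo2 at 135 (118 to 154) and 209 CPM (173 to 250), Wwtr1 at 317 and 312 CPM, and Amotl2 at 124 and 73.1 CPM. The same barcodes held the FB gene Pdgfra at 339 and 127 CPM, and the part of FB RNA in these levels was not tested.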
